A study of Mus musculus with 6 samples.

Results

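The response of Hnrnpf knockout mouse embryonic stem cells (ESCs) to the removal of leukemia inhibitory factor (LIF) was measured by RNA-seq, by setting the 2 knockout libraries taken 4 days after LIF removal against the 2 knockout libraries kept in LIF. These are 4 of the 6 libraries of the series, and 11849 of the 25170 gene symbols in the deposited table had a mean of at least 1 FPKM (fragments scaled to transcript length and library size) over them and were tested. All cells were E14, an established mouse ESC line, cultured in DMEM with fetal bovine serum. The groups used here are Hnrnpf knockout cells with LIF (2 libraries), Hnrnpf knockout cells 4 days after LIF removal (2 libraries), and wild type E14 cells in each of those media (1 library each), which serve only for comparison. Knockout libraries are called 1 and 2 by their number in the labels. The labels give neither the deleted part of the gene nor whether a number stands for a clone. The spread that p-values rest on here is that between the 2 libraries of a medium, which includes the gap between numbers 1 and 2. Whether these are independent cultures is not given.

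LIF binds the receptor pair of Lifr and Il6st (gp130) and activates the kinase Jak1 and the transcription factor Stat3, which sustains the naive pluripotency factors of mouse ESCs. When LIF is withdrawn, ESCs normally turn down the naive network, pass through a formative state like that of the early post-implantation epiblast, and then begin to express genes of the germ layers. Autocrine Fgf4 acting through ERK, together with Nodal signals, is known to drive this exit. Hnrnpf encodes a splicing regulator of the hnRNP family, whose RNA recognition domains contact runs of G.

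Hnrnpf (chromosome 6, 117900340 to 117925622) was listed at 98.7 and 37.1 FPKM in knockout libraries 1 and 2 with LIF and at 95.2 and 27.8 after LIF removal, against 342 and 335 FPKM in the wild type libraries. The level was below wild type in each knockout library, lower in the libraries numbered 2, and did not differ detectably between media (log2 difference -0.23, SE 0.62, limma adjusted p = 0.848). The ESC markers Pou5f1, Sox2, Nanog, Zfp42 and Esrrb were present in all 4 libraries, at 33.1 FPKM or more. Depth relative to library 1 with LIF, estimated from low values, was 1.007 in library 2 with LIF and 0.849 and 0.788 in the libraries after removal, with summed FPKM from 456155 to 504906. A first principal component, with 67.3% of the variance, ordered the libraries by medium, and the second, with 21.9%, by number. FPKM of genes with pseudogenes or near-identical copies (Aldoa, Krt18, Hnrnpa1, Dynlt1f) are uncertain, and whether counting used strand is not given in the sources used here.

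After 4 days without LIF, 6 of 16 genes of the naive pluripotency list fell and none rose. Meanwhile 10 of 29 actin cytoskeleton genes and 10 of 25 imprinted genes rose and none fell. Of the formative and the primitive streak genes tested, 4 of 21 and 4 of 10 rose and 1 each fell. Of the 11849 genes, 815 (6.88%) passed the threshold, a Benjamini-Hochberg adjusted p under 0.05 in limma on log2(FPKM + 1). Of these, 361 (3.05%) were higher and 454 (3.83%) lower after removal, and 254 (2.14%) and 224 (1.89%) differed by a log2 of at least 1. The shares of 3.05% and 3.83% are the background for every count of list members called below. A count near them is not a result about the list. The median over all genes tested was -0.02. For 3217 genes (27.1%) both libraries after removal lay above both with LIF, and for 3770 (31.8%) both lay below. All log2 differences are without LIF minus with LIF on the log2(FPKM + 1) scale, which understates changes of genes at low values.

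The number of calls depended on which libraries were used. Without library 1 or 2 with LIF, 129 and 526 genes passed, and without library 1 or 2 after removal 420 and 100, of which 118, 389, 331 and 90 were among the 815. All 815 kept their direction in each of these fits. For a gene whose libraries do not overlap between media, that outcome is fixed in advance. With no filter on low values, 0 genes passed, and 3883 had an unadjusted p under 0.05. Calls of 66 genes held whichever library was left out, 25 higher and 41 lower. The 25 were led by the growth factor Fgf5 and the matrix protein Efemp1 and also held Ccn2, Tpm1, Tpm4, Zyx, Wls, Krt19, Peg10, Grb10 and B2m. Among the 41 were Tcl1, Klf2, Mybl2, Lefty2, Mymx, Krt42, Septin1, Dlgap3, Stra8 and Aurkc.

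The size of the difference moved with the GC content of the transcript. Across 11768 genes with a GENCODE transcript, Spearman's rho between the log2 difference and the GC percent was -0.421 (a description across genes, which are not independent replicates). Of 5 equal bins of genes, the bin with the lowest GC (median 41.4%) had 129 genes higher and 9 lower, and the bin with the highest GC (median 58.0%) had 34 higher and 234 lower. The median transcript GC was 46.0% for genes called higher, 56.0% for genes called lower and 49.9% over all. In wild type cells the same relation was weaker, at -0.161, and between the 2 knockout libraries of a medium it was -0.129 with LIF and 0.344 after removal (library 2 minus library 1). Its part in each result was not tested. A fit after removing a smooth trend on GC from each library, chosen after seeing the data, is given beside the gene groups. It called 204 genes higher (1.73%) and 140 lower (1.19%), 308 of the 344 being among the 815.

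**Figure D1:**
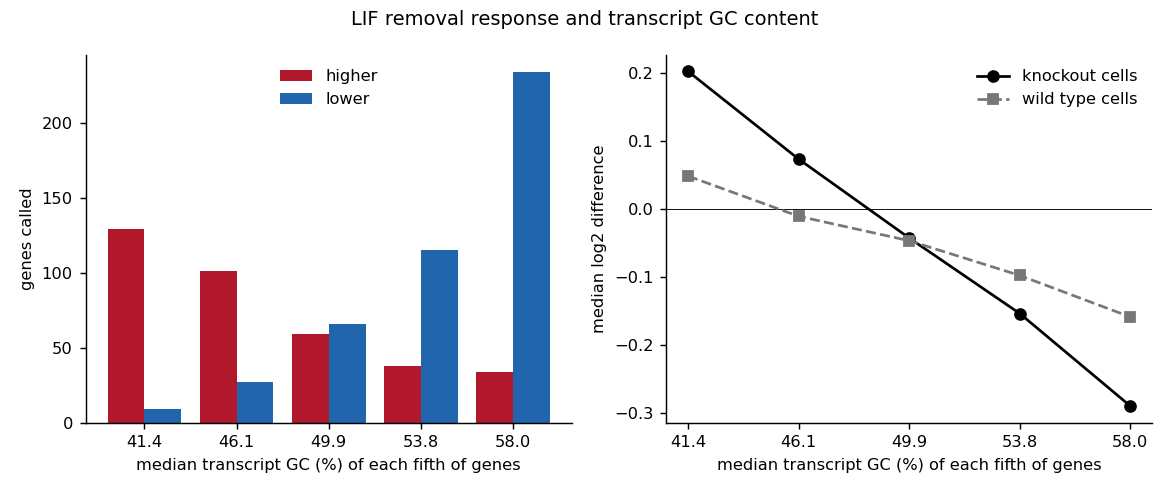
Left, number of genes called higher (red) and lower (blue) after LIF removal in Hnrnpf knockout cells, in 5 equal bins of the tested genes ordered by transcript GC content. Right, median log2 difference of each bin in knockout cells (circles) and wild type cells (squares): the knockout median goes from 0.20 in the lowest bin to -0.29 in the highest, and that of wild type cells from 0.05 to -0.16.

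Of 16 tested genes of the naive pluripotency factor list, 6 fell and none rose, with a list median of -0.93. The list also holds Tcl1, which is not a transcription factor, and the cell cycle factor Mybl2. For 14 members both libraries after removal lay below both with LIF, against 31.8% of all genes tested. Esrrb (chromosome 12, 86361117 to 86521628), an orphan nuclear receptor of the naive network, stood at 145 and 104 FPKM with LIF and at 52.7 and 33.1 after removal. Its libraries do not overlap between media, and its log2 difference was -1.54 (SE 0.25, limma adjusted p = 0.0254). Klf2, a Kruppel-like factor, went from 336 and 267 FPKM to 126 and 90.1 (-1.48, SE 0.20, adjusted p = 0.0189). Nr0b1 (Dax1), a nuclear receptor without a DNA-binding domain, went from 60.5 and 90.1 FPKM to 28.1 and 18.6 (-1.65, adjusted p = 0.0234). The widest fall of the list was that of Tcl1 (chromosome 12, 105216753 to 105222737), a coactivator of the kinase Akt, from 30.6 and 31.0 FPKM to 3.81 and 5.55 (-2.50, SE 0.19, adjusted p = 0.0109). The other members that fell were Mybl2 (-1.25), a cell cycle transcription factor, and Tfcp2l1 (-0.96).

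Several well known members did not pass. Nanog was at 189 and 226 FPKM with LIF and at 185 and 146 after removal (-0.33, SE 0.16, adjusted p = 0.240), so library 1 after removal lay close to library 1 with LIF. Zfp42 (Rex1) was at 412 and 334 FPKM with LIF and 236 and 111 after removal (-1.19, adjusted p = 0.0763). Klf4 was at 11.8 and 15.9 FPKM with LIF and 6.21 and 10.5 after removal (-0.70, adjusted p = 0.151). After GC correction 3 of the 16 were called lower, namely Tcl1, Mybl2 and Tfcp2l1, while Klf2 (-1.13, adjusted p = 0.0643), Esrrb (-1.34, adjusted p = 0.0648) and Nr0b1 (-1.44, adjusted p = 0.0614) kept their direction and missed the threshold. The count lower was 4, 5, 8 and 3 without libraries 1 and 2 with LIF and 1 and 2 after removal.

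Other markers of the naive state gave 6 lower and none higher of 22, with a median of -0.56. Dppa5a, an RNA-binding protein abundant in ESCs, fell from 4062 and 4115 FPKM to 2117 and 1542 (-1.18, SE 0.16, adjusted p = 0.0207). Pecam1, an adhesion molecule of the naive surface, fell from 29.4 and 27.0 FPKM to 11.9 and 10.03 (-1.29, adjusted p = 0.0174), and Dppa3 (Stella) from 50.5 and 70.9 to 32.1 and 26.3 (-1.02, adjusted p = 0.0354). Spp1 (osteopontin, -0.83), Fgf4 (-1.20) and Utf1 (-0.60) fell as well. After GC correction 5 were lower, Utf1 no longer among them (-0.23, adjusted p = 0.335), and Trh was higher. Without library 2 after removal 0 of the 22 were called, and without library 1 after removal 7.

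Of 9 core factors shared by naive and primed cells 3 fell (Sox2, Pou5f1 and Utf1) and none rose, with a median of -0.33. Pou5f1 (Oct4) stood at 1002 and 1053 FPKM with LIF and at 587 and 684 after removal (-0.70, SE 0.12, adjusted p = 0.0298). Sox2 went from 310 and 257 FPKM to 163 and 144 (-0.88, SE 0.14, adjusted p = 0.0254). Sox2 kept its call after GC correction, and Pou5f1 did not (-0.43, adjusted p = 0.0857). Core calls numbered 0 without library 1 with LIF and 0 without library 2 after removal.

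**Figure D2:**
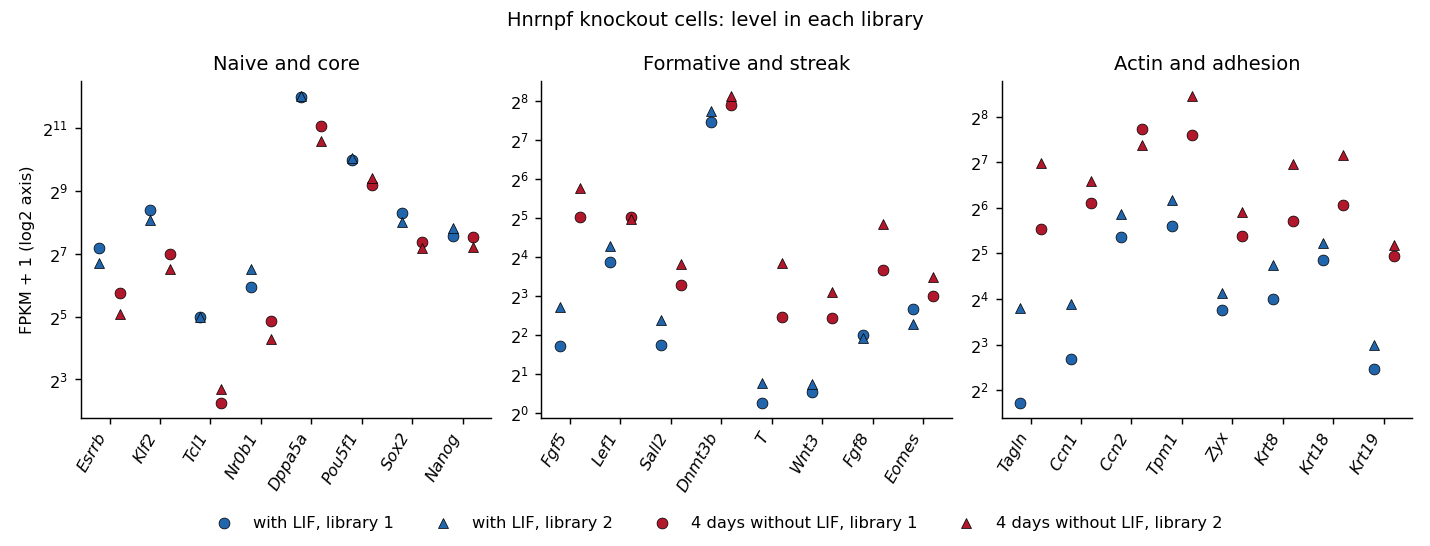
Level of 24 genes in each Hnrnpf knockout library, as FPKM + 1 on a log2 axis, with LIF (blue) and 4 days after its removal (red), circles for library 1 and triangles for library 2. Blue and red symbols do not overlap in level for any gene shown, and the distance is widest for Tagln, Fgf5 and Ccn1 and smallest for Nanog and Dnmt3b.

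The LIF receptor and STAT3 pathway had 2 of 23 tested members lower and none higher, and a median of -0.07. The members that fell were Icam1, an adhesion molecule, from 15.9 and 16.2 FPKM to 7.01 and 9.49 (-0.89, SE 0.19, adjusted p = 0.0415), and the survival kinase Pim3, from 64.4 and 65.0 to 37.0 and 44.4 (-0.66, adjusted p = 0.0440). The receptor gene Lifr was at 7.35 and 5.46 FPKM with LIF and 3.69 and 2.60 after removal (-0.84, adjusted p = 0.0775). Its partner Il6st was at 24.8 and 23.7 FPKM against 15.7 and 17.9 (-0.50, adjusted p = 0.0896), and the kinase Pim1 at 63.1 and 56.2 against 27.8 and 39.5 (-0.83, adjusted p = 0.0510). Socs3, a feedback inhibitor of LIF signaling, was at 5.88 and 4.67 FPKM against 2.53 and 3.71 (-0.62, adjusted p = 0.146). For 10 of the 23 members both libraries after removal lay below both with LIF, and for 5 above. Over all genes tested these shares were 31.8% and 27.1%. After GC correction Icam1 and Pim3 missed the threshold (adjusted p = 0.0806 and 0.170) and Junb was called higher. Icam1 and Pim3 were called in none of the 4 fits that left out a library.

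Promoters of the genes that fell were searched on both strands for TTCNNNGAA, the palindrome that STAT dimers are known to bind, in the 250 bases before and 50 after each start in the RefSeq table (GRCm38.p6). It was found in 6.55% of the promoters of tested genes and in 30 of 488 promoters of all genes called lower (6.15%). In the tested LIF and STAT3 list 5 of 27 promoters held it (18.5%), and of the naive factors 1 of 17 (5.88%). Those 5 promoters belong to 4 genes, of which only Icam1 was called. Of the genes called lower in these lists, Icam1 and Esrrb hold it, 42 and 178 bases before the start. The 250 bases upstream of Icam1 (chr9:21015690-21015939, plus strand) and of the Esrrb start that holds a match (chr12:86360867-86361116, plus strand) are shown because they carry these matches, in capitals. A match is a description of the letters, not evidence of binding.
Icam1: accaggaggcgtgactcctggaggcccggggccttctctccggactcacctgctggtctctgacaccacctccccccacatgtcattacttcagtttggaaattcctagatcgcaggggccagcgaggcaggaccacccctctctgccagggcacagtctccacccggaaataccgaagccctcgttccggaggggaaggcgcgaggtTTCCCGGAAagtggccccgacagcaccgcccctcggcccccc
Esrrb: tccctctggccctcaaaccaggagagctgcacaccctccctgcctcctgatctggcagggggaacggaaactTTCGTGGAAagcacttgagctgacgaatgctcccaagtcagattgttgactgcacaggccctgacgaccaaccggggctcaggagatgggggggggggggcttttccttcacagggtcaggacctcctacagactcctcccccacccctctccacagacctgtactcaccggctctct

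Genes of the formative and primed epiblast gave 4 higher and 1 lower of 21, with a median of 0.41. For 13 both libraries after removal lay above both with LIF, and for 3 below, against 27.1% and 31.8% of all genes tested. Fgf5 (chromosome 5, 98254184 to 98277033), the growth factor that marks this state, was at 2.29 and 5.58 FPKM with LIF and at 31.1 and 53.5 after removal. Its log2 difference was 3.17 (SE 0.37, adjusted p = 0.0171), and the lowest library without LIF lay well above the highest with it. Sall2, a zinc finger factor, rose from 2.35 and 4.22 FPKM to 8.71 and 13.0 (1.48, adjusted p = 0.0351). Lef1, a nuclear effector of Wnt signaling, rose from 13.6 and 18.2 FPKM to 31.4 and 30.3 (0.93, adjusted p = 0.0339), and Lin28b, which blocks let-7 maturation, from 11.99 and 10.05 to 21.2 and 18.2 (0.79, adjusted p = 0.0452). The 16 members that did not pass included Otx2 and Dnmt3b. Otx2 was at 49.7 and 52.0 FPKM with LIF and 63.5 and 52.8 after removal (0.18, adjusted p = 0.444), and Dnmt3b at 174 and 211 against 236 and 275 (0.41, adjusted p = 0.131). The other de novo methyltransferase of the list, Dnmt3a, fell from 30.2 and 31.1 FPKM to 18.4 and 20.1 (-0.65, adjusted p = 0.0456). After GC correction Fgf5 and Sall2 were called. Without library 1 with LIF and without library 2 after removal 1 member was called higher, and in the other 2 fits 4.

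Of 21 tested FGF and ERK genes, 5 rose and 1 fell (median 0.18). The ligand Fgf8 rose from 2.99 and 2.76 FPKM to 11.7 and 27.7 (2.30, SE 0.36, adjusted p = 0.0246), while the ligand Fgf4, expressed in naive cells, fell from 77.8 and 75.4 to 39.7 and 27.0 (-1.20, adjusted p = 0.0250). The ERK phosphatases Dusp6 and Dusp4, feedback genes of the pathway, rose from 18.7 and 23.3 FPKM to 43.7 and 54.3 (1.19, adjusted p = 0.0220) and from 13.9 and 12.3 to 24.7 and 27.2 (0.94, adjusted p = 0.0254). Jun, a component of the AP-1 factor, rose from 2.87 and 3.35 FPKM to 7.60 and 14.9 (1.51, adjusted p = 0.0369). The ETS factors Etv4 (-0.44, adjusted p = 0.124) and Etv5 (-0.25, adjusted p = 0.209), also ERK targets, did not pass. After GC correction 6 were higher, with Fgfr1 added, and 1 lower. The count higher was 1 without library 1 with LIF and 2 without library 2 after removal.

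Of 22 tested members of the Wnt pathway and its targets 5 rose and 1 fell, with a median of 0.30. The ligands Wnt3 and Wnt6 went from 0.445 and 0.663 FPKM to 4.39 and 7.49 (2.13, SE 0.28, adjusted p = 0.0188) and from 0.314 and 0.468 to 3.93 and 10.3 (2.43, adjusted p = 0.0250). The receptor Fzd1 rose from 0.222 and 0.424 FPKM to 1.81 and 2.21 (1.19, adjusted p = 0.0398), and Sp5, a direct Wnt target, from 0.580 and 0.729 to 3.05 and 10.3 (2.03, adjusted p = 0.0481). Wls, the carrier that Wnt proteins need for secretion, was among the 12 largest rises, from 2.00 and 3.86 FPKM to 17.9 and 23.8 (2.50, SE 0.27, adjusted p = 0.0171). Notum, a secreted Wnt inhibitor, fell from 14.6 and 19.6 FPKM to 6.09 and 5.85 (-1.36, adjusted p = 0.0207). After GC correction 5 were higher and 0 lower, Fzd2 entering and Lef1 leaving. Without library 2 after removal no member was called.

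The primitive streak list had 10 tested members of 22, since the others were below 1 FPKM on average. Of the 10, 4 rose (Wnt3, Fgf8, T and Sp5) and Fgf17 fell, with a median of 0.87. T (Brachyury, chromosome 17, 8434423 to 8442496), the defining factor of the streak, stood at 0.199 and 0.711 FPKM with LIF and at 4.45 and 13.3 after removal (2.63, SE 0.45, adjusted p = 0.0288). Eomes was at 5.29 and 3.86 FPKM with LIF and 6.92 and 10.3 after removal (0.77, adjusted p = 0.101). Other mesendoderm factors were low: Mixl1 lay between 0.590 and 1.64 FPKM in the 4 libraries, Gsc between 0.157 and 1.51, and Foxa2 between 0 and 0.947. Summed over the 22 genes, the list was at 27.0 and 32.0 FPKM with LIF and 47.3 and 96.5 after removal. The same 4 genes were called higher after GC correction, and Fgf17 was not called. Without library 1 with LIF, and without library 2 after removal, 1 of them was called.

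The Wnt responsive sequence of TCF and LEF factors was searched as CTTTGAA or CTTTGAT on both strands. It was found in 5.62% of the promoters of tested genes and in 2 of 24 promoters of the tested Wnt list (8.33%). Among promoters of all genes called higher, 22 of 357 held it (6.16%). Of the Wnt and streak genes called higher, Sp5 and T hold a match, 104 and 235 bases before the start, and the T match reads on the other strand. That is 1 of 8 promoters of the Wnt genes called higher and 2 of 3 of the streak genes, with Sp5 in both lists. The 250 bases upstream of Sp5 (chr2:70474673-70474922, plus strand) and of T (chr17:8434173-8434422, plus strand) are given because they carry these matches, in capitals. As above, a match is not evidence of binding.
Sp5: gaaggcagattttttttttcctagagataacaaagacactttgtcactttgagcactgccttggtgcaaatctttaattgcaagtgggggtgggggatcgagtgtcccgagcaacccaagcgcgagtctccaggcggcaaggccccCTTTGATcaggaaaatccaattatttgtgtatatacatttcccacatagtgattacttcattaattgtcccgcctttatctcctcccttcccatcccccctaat
T: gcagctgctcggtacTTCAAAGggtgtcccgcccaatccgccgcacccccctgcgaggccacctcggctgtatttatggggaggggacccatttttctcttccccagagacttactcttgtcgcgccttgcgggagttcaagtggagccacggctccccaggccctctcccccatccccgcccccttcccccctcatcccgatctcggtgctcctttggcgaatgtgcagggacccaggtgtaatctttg

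In the Nodal and activin pathway 3 of 17 rose and 1 fell (median 0.08). Lefty2, a Nodal target and inhibitor, fell from 153 and 114 FPKM to 44.8 and 46.8 (-1.51, SE 0.17, adjusted p = 0.0171). Fst (follistatin), which binds and blocks activin, rose from 1.49 and 6.65 FPKM to 20.1 and 35.2 (2.66, SE 0.52, adjusted p = 0.0354). The receptor Acvr2a rose as well (0.81, adjusted p = 0.0488). In the BMP list only the receptor Bmpr1a passed, of 16 tested, from 18.9 and 20.8 FPKM to 30.3 and 32.2 (0.63, adjusted p = 0.0492). Lefty2 was called in every fit with a library left out, and also after GC correction. Fst was called in 3 of the 4 fits with a library left out, and Acvr2a and Bmpr1a in none. After GC correction Fst (adjusted p = 0.0722), Acvr2a (0.109) and Bmpr1a (0.142) missed the threshold.

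Actin cytoskeleton genes, many of them targets of the factors SRF and YAP, included the largest rises. Of 29 tested 10 rose and none fell, with a median of 0.77. For 17 both libraries after removal lay above both with LIF, against 27.1% of all genes tested. Tagln (transgelin, chromosome 9, 45929628 to 45936058), an actin-binding protein, was at 2.32 and 13.0 FPKM with LIF and at 45.2 and 125 after removal (3.48, SE 0.70, adjusted p = 0.0383). Libraries 1 and 2 differed widely in both media, but the groups do not overlap. The matricellular proteins Ccn1 and Ccn2, known YAP targets, rose from 5.47 and 13.7 FPKM to 67.9 and 95.8 (3.06, SE 0.38, adjusted p = 0.0173) and from 40.0 and 57.6 to 211 and 165 (1.94, SE 0.21, adjusted p = 0.0171). Thbs1 (thrombospondin 1) rose from 0.377 and 3.77 FPKM to 15.3 and 39.5 (3.32, adjusted p = 0.0338).

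The tropomyosins Tpm1 and Tpm4, which line actin filaments, rose from 47.7 and 70.9 FPKM to 192 and 347 (2.13, adjusted p = 0.0207) and from 63.1 and 53.3 to 139 and 126 (1.18, adjusted p = 0.0171). Focal adhesion proteins followed: Zyx (zyxin) rose from 12.5 and 16.4 FPKM to 40.6 and 58.6 (1.70, adjusted p = 0.0186) and Vcl (vinculin) from 37.5 and 36.4 to 59.5 and 68.6 (0.77, adjusted p = 0.0298). Cnn1 (calponin, 1.51) and Amotl2 (1.23) also rose. After GC correction 8 of the list were called higher, Flna added and Tagln (adjusted p = 0.0657), Thbs1 (adjusted p = 0.0611) and Cnn1 (adjusted p = 0.0581) lost. The count was 5, 10, 14 and 4 without libraries 1 and 2 with LIF and 1 and 2 after removal. The group also differed between the libraries after removal, with 26 of 29 members higher in library 2 than in library 1 (median gap 0.52 on the log2 scale).

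Promoters of the actin list were searched for the CArG box, the element SRF binds, and for GGAATG, a sequence of TEAD factors, the DNA-binding partners of YAP. RefSeq promoters were matched for 25 of the 29 tested members. A CArG box was found in 7 of their 28 promoters (25%), against 1.26% of the promoters of tested genes, and the list was made in part of genes known as SRF targets. Most of these 7 belong to members that were not called (Actg1, Cnn2, Myl9 and Fhl2 among them), and of the 7 called members with a promoter only Vcl holds one, 227 bases before the start. GGAATG or its reverse complement was found in 4 of those 7 (57.1%; Tpm1, Vcl, Ccn1 and Amotl2), against 12.2% of the promoters of tested genes. Over all tested members of the list, made in part of known YAP targets, it was found in 11 of 28 promoters (39.3%), most of them of members that were not called. Stretches of 250 bases are shown, with the CArG box of Vcl (chr14:20929148-20929397, plus strand) and the TEAD sequence of Ccn1 (chr3:145649986-145650235, minus strand) and Amotl2 (chr9:102717554-102717803, plus strand) in capitals.
Vcl: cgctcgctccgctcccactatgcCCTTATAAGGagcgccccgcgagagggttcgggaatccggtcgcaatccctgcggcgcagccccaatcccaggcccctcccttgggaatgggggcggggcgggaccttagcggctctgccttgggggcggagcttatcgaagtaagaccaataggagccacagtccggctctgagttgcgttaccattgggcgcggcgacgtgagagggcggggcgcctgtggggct
Ccn1: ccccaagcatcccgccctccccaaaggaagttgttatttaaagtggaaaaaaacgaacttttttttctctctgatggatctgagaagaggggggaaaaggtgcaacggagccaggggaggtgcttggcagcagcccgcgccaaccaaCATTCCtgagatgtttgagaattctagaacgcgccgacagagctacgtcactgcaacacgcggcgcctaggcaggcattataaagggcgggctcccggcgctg
Amotl2: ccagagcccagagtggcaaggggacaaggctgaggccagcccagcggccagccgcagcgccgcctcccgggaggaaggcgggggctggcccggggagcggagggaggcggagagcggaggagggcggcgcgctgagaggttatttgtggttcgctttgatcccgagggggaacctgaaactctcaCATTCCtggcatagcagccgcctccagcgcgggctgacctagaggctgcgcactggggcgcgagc

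Keratins and other epithelial genes moved in both directions, with 4 of 23 higher and 2 lower (median 0.22). The simple epithelial keratins Krt8 and Krt18, which pair in filaments, rose from 14.9 and 25.8 FPKM to 51.2 and 124 (1.96, SE 0.42, adjusted p = 0.0435) and from 27.9 and 36.3 to 65.8 and 143 (1.58, adjusted p = 0.0449). Krt19 (chromosome 11, 100140810 to 100145926) rose from 4.55 and 6.98 FPKM to 29.9 and 35.2 (2.33, SE 0.22, adjusted p = 0.0149), and the tight junction protein Cldn7 from 27.9 and 26.7 to 48.6 and 59.2 (0.95, adjusted p = 0.0246). Krt42, a type I keratin, fell from 17.7 and 21.1 FPKM to 2.40 and 3.32 (-2.41, adjusted p = 0.0109), and the gap junction protein Gjb1 from 3.08 and 7.09 to 0.860 and 0.363 (-1.85, adjusted p = 0.0360; 0.0874 after GC correction). Of 7 surface ectoderm genes tested 3 rose, Krt8, Krt18 and the factor Tfap2a, the last from 0.431 and 0.642 FPKM to 2.03 and 2.56 (1.10, adjusted p = 0.0454). None of these 3 was called after GC correction (adjusted p = 0.0551, 0.0519 and 0.0648) or without library 1 with LIF or library 2 after removal.

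Of 16 mesenchymal transition genes tested 1 rose (median 0.47), Efemp1 (fibulin 3, chromosome 11, 28853154 to 28926743), from 0.280 and 0.517 FPKM to 8.86 and 11.7 (3.01, SE 0.23, adjusted p = 0.0109). Fn1 (fibronectin) was at 203 and 152 FPKM with LIF and 117 and 77.1 after removal (-0.88, adjusted p = 0.0661). Vim (vimentin) was at 27.4 and 45.6 FPKM against 42.0 and 86.9, with overlapping groups (0.76, adjusted p = 0.230). After GC correction Efemp1 and Twist1 were called higher, and Efemp1 was called in every fit with a library left out.

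Of 7 definitive endoderm genes tested Krt19 rose and none fell (median 0.47). For 5 both libraries after removal lay above both with LIF, against 27.1% of all genes tested. The list summed to 330 and 368 FPKM with LIF and 469 and 547 after removal. Among its factors Sox17 was at 0.272 FPKM or less and Gata6 at 0.577 or less in all 4 libraries, while Gata4 was at 2.13 and 1.16 FPKM against 1.92 and 1.56 (0.08, adjusted p = 0.882). After GC correction Krt19 and Trh were called. Afp and Ttr were listed at 0 in each library. Of 11 tested members of the primitive endoderm and basement membrane list 2 rose, the endocytic receptor Lrp2, from 10.6 and 14.7 FPKM to 33.2 and 44.1 (1.54, adjusted p = 0.0207), and its adaptor Dab2, from 0.900 and 2.32 to 5.21 and 9.09 (1.66, adjusted p = 0.0417). Lrp2 kept its call after GC correction and Dab2 did not (adjusted p = 0.0817), and neither was called without library 2 after removal. Among early neural genes Nes (nestin) rose from 3.41 and 4.42 FPKM to 11.3 and 16.0 (1.56, adjusted p = 0.0220) and Tubb3 fell from 84.5 and 75.9 to 48.4 and 47.5 (-0.73, adjusted p = 0.0298), while Sox1 was at 0.559 or less and Pax6 at 3.95 and 4.11 against 2.67 and 2.44 (-0.50, adjusted p = 0.157). Nes kept its call after GC correction, and Tubb3 did not (adjusted p = 0.0943) and was called in none of the 4 fits that left out a library. None of 11 trophoblast genes passed limma's test (median 0.16), also after GC correction (median 0.47). Summed over the whole list, trophoblast markers were at 46.0 and 59.8 FPKM with LIF and 46.7 and 66.2 after removal, early neural markers at 135 and 152 against 127 and 193, and primitive endoderm and basement membrane genes at 271 and 285 against 313 and 436, so the high value of each was that of library 2 after removal. Fibroblast markers summed to 11.2 and 11.6 FPKM with LIF and 10.4 and 12.1 after removal over 12 genes, with 0 of 3 tested called. Blood and endothelial markers summed to 7.32 and 10.4 FPKM against 10.9 and 11.1, with 0 of 3 called and Emcn, Hba-x and Hbb-bh1 at 0 throughout. Of the muscle list, Actc1, a cardiac actin, rose from 0.180 and 0.238 FPKM to 2.19 and 3.50 (1.65, adjusted p = 0.0250), while Mymx and Myl7 fell. Actc1 and Mymx were called after GC correction, and Myl7 was not (adjusted p = 0.076) and was called in none of the 4 fits that left out a library. The part of other cell types in the results was not tested. In bulk RNA, fewer cells of a type and less RNA per cell cannot be told apart.

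Of 25 imprinted genes tested, which are expressed from the allele of a single parent, 10 rose and none fell (median 0.78). Peg10 (chromosome 6, 4747306 to 4760517), a retrotransposon-derived gene of paternal expression, was at 70.3 and 98.1 FPKM with LIF and 311 and 294 after removal (1.85, SE 0.17, adjusted p = 0.0149). Grb10 (chromosome 11, 11930499 to 12037428), an adaptor that restrains insulin signaling, rose from 14.3 and 16.1 FPKM to 66.6 and 47.3 (1.82, SE 0.19, adjusted p = 0.0171). The transcription factor Plagl1 rose from 0.850 and 1.96 FPKM to 6.78 and 9.86 (1.97, adjusted p = 0.0222), the growth factor Igf2 from 2.22 and 5.55 to 12.2 and 17.2 (1.76, adjusted p = 0.0369), and Nnat from 10.3 and 18.3 to 39.7 and 67.1 (1.83, adjusted p = 0.0298). Gnas (1.002), Rian (0.97), Sgce (0.97), Mest (0.78) and Peg3 (1.46) rose too.

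Other imprinted members did not pass. Meg3, of the same cluster as Rian, was at 67.7 and 88.1 FPKM with LIF and 116 and 124 after removal (0.63, adjusted p = 0.0607). H19 ranged more between libraries than between media, at 7.55 and 56.1 FPKM with LIF and 27.4 and 118 after removal (1.39, SE 0.95, adjusted p = 0.383). Within each number it was higher after removal, and the unpaired test counts the gap between numbers as error. Cdkn1c, a cell cycle inhibitor, was at 11.8 and 18.6 FPKM against 9.89 and 10.2 (-0.52, adjusted p = 0.195). After GC correction 6 were called higher (Peg10, Grb10, Gnas, Rian, Plagl1 and Nnat). The count was 3, 10, 8 and 2 without libraries 1 and 2 with LIF and 1 and 2 after removal.

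**Figure D3:**
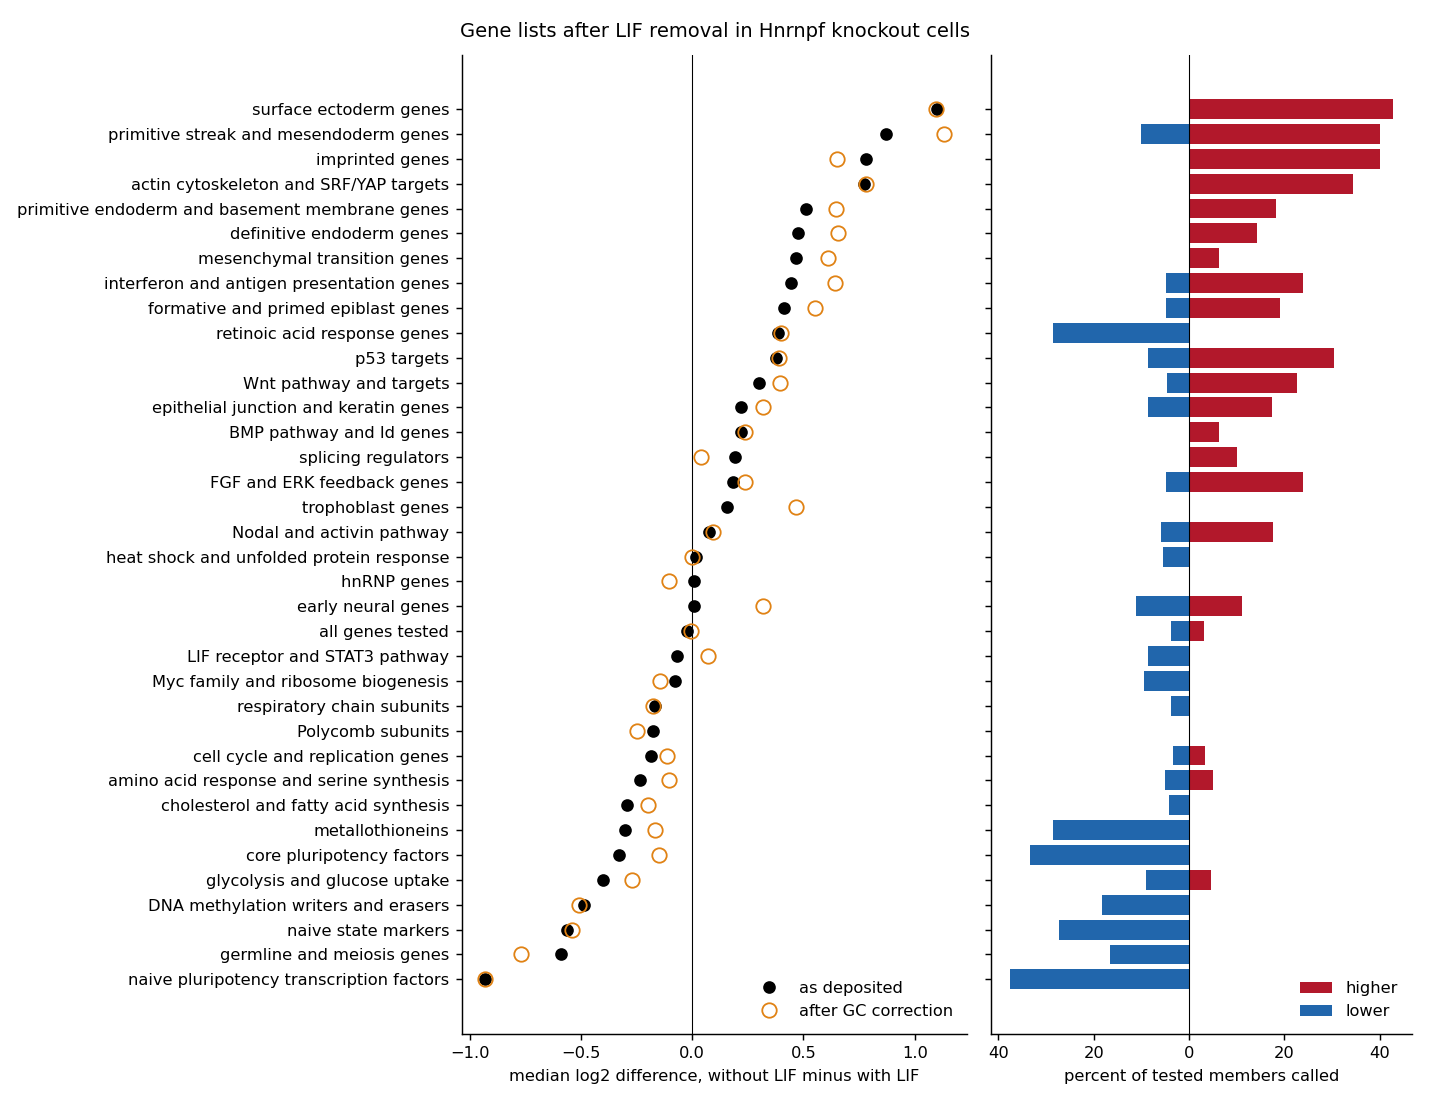
Gene lists with at least 7 tested members, with all genes tested for reference. Left, median log2 difference after LIF removal in Hnrnpf knockout cells as deposited (filled) and after GC correction (open). Right, percent of tested members called higher (red) and lower (blue). The naive factors have the lowest median, -0.93, and surface ectoderm genes the highest, 1.10, both about equal after GC correction.

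Known p53 targets gave 7 higher and 2 lower of 23 (median 0.38). Perp, a desmosome protein linked to apoptosis, rose from 7.33 and 16.6 FPKM to 41.2 and 78.0 (2.26, adjusted p = 0.0312), Plk2 from 10.7 and 13.8 to 30.7 and 45.4 (1.54, adjusted p = 0.0220), Ccng1 from 103 and 148 to 284 and 333 (1.31, adjusted p = 0.0220) and Trp53inp1 from 48.4 and 62.2 to 122 and 139 (1.23, adjusted p = 0.0188). The best known target, Cdkn1a (p21), was at 42.4 and 40.3 FPKM with LIF and 55.1 and 79.9 after removal (0.67, SE 0.19, adjusted p = 0.0821). Tigar (-0.76) and Gdf15 (-1.23) fell. After GC correction 2 were called, Plk2 and Trp53inp1, and without library 2 after removal 0.

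Antigen presentation and interferon genes gave 5 higher and 1 lower of 21 (median 0.44). B2m (chromosome 2, 122147687 to 122153082), the light chain of class I major histocompatibility complexes, rose from 29.0 and 27.7 FPKM to 88.0 and 83.4 (1.56, SE 0.13, adjusted p = 0.0109), and its 2 libraries of a medium lay close together. The peptide transporter Tap1 rose from 3.31 and 3.83 FPKM to 8.34 and 10.7 (1.19, adjusted p = 0.0267), and the interferon-induced GTPases Gbp2 and Irgm1 from 3.35 and 7.53 to 21.3 and 32.7 (2.17, adjusted p = 0.0250) and from 9.92 and 13.3 to 27.1 and 34.9 (1.35, adjusted p = 0.0222). Isg15 rose (1.63), and Ifitm2, a membrane protein high in ESCs, fell from 816 and 860 FPKM to 462 and 499 (-0.80, adjusted p = 0.0207). Irf7, Ifit1 and Ifit3 were at 0.350 FPKM or less in all 4 libraries. The same 6 genes were called after GC correction. Without library 2 after removal 1 was called higher, and without library 1 with LIF 2.

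Germline and meiosis genes, expressed at low levels in serum-grown ESCs, had 3 of 18 lower and none higher (median -0.59). Stra8, the meiotic gatekeeper, fell from 14.5 and 8.54 FPKM to 1.68 and 0.754 (-2.49, SE 0.31, adjusted p = 0.0181), and Tdrd12, of the piRNA pathway, from 27.0 and 33.2 to 13.7 and 11.5 (-1.19, adjusted p = 0.0220). Sohlh2 fell by 1.31 on the log2 scale (adjusted p = 0.0481) and was not called after GC correction (adjusted p = 0.0757) or in any of the 4 fits that left out a library. The retinoic acid receptors Rarg and Rara fell from 96.4 and 90.6 FPKM to 42.9 and 45.8 (-1.06, adjusted p = 0.0171) and from 65.9 and 54.5 to 31.2 and 25.1 (-1.07, adjusted p = 0.0246), of 7 retinoic acid genes tested. Rara was not called after GC correction (adjusted p = 0.0838).

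The 12 largest falls also held genes not yet given with values. Mymx (chromosome 17, 45600961 to 45602196), a muscle fusion peptide of the muscle list, went from 30.3 and 30.3 FPKM to 3.54 and 4.66 (-2.62, SE 0.18, adjusted p = 0.0109). Septin1 (chromosome 7, 127212709 to 127232985), a cytoskeletal GTPase, went from 42.9 and 51.4 FPKM to 9.99 and 8.40 (-2.24, adjusted p = 0.0109), Dlgap3 from 27.5 and 22.3 to 6.26 and 3.62 (-2.15, adjusted p = 0.0171) and Fam25c from 35.6 and 40.9 to 3.32 and 10.7 (-2.46, adjusted p = 0.0288). The meiotic kinase Aurkc went from 4.60 and 3.61 FPKM to 0.306 and 0.0867. Mt4, Calml4 and Lst1 were listed at 0 in both libraries after removal, from 7.05 and 2.76, 2.77 and 4.21, and 3.40 and 3.33 FPKM with LIF, and no fold change is given. The metallothionein Mt3 fell from 13.7 and 7.04 FPKM to 2.37 and 1.10 (-2.03, adjusted p = 0.0297). Mt3 (adjusted p = 0.078) and Fam25c (0.053) missed the threshold after GC correction. The abundant Mt1 was at 2490 and 1634 FPKM against 2576 and 1040, so its levels went with the library number (-0.30, adjusted p = 0.676).

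None of 26 hnRNP genes passed (median 0.01), including the close paralog Hnrnph1, at 498 and 559 FPKM with LIF and 558 and 550 after removal (0.07, adjusted p = 0.732). Of 30 splicing regulators 3 rose and none fell (median 0.19), Celf2 from 1.02 and 0.936 FPKM to 3.47 and 4.15 (1.28, adjusted p = 0.0273), Mbnl1 (1.09) and Khdrbs1 (0.55). None of the 3 was called after GC correction or in any of the 4 fits that left out a library. The 22 glycolysis genes had a median of -0.40. For 15 both libraries after removal lay below both with LIF, and for 3 above, against 31.8% and 27.1% of all genes tested. The glucose transporter Slc2a1 rose from 319 and 296 FPKM to 553 and 684 (SE 0.14 on the log2 scale, adjusted p = 0.0207), and Aldoa (-0.66, adjusted p = 0.0321) and Hk1 (-0.93, adjusted p = 0.0328) fell. Neither fall was called after GC correction (adjusted p = 0.0912 and 0.0667). Of 11 DNA methylation genes Uhrf1 fell from 109 and 105 FPKM to 66.0 and 65.6 (-0.69, adjusted p = 0.0287) and Dnmt3a fell as above, neither after GC correction. No more than 2 members passed in the lists of Polycomb subunits (0 of 18), respiratory chain subunits (1 of 26), cholesterol synthesis (1 of 24), amino acid response (2 of 20), heat shock (1 of 18), cell cycle (2 of 30), and Myc and ribosome biogenesis (2 of 21).

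The wild type libraries, which took no part in the choice of these calls, were given the same treatment. Of the 361 genes called higher in knockout cells, 351 (97.2%) also lay higher in wild type cells after removal, and of the 454 lower, 442 (97.4%) lay lower, against 74.4% with equal sign over all genes tested. That share is not matched to the called genes in size of difference or in transcript GC, with which both responses moved. A difference of at least 1 on the log2 scale in the same direction was seen in wild type cells for 194 and 198 of them, and in the opposite direction for 0. Of all genes, 446 (3.76%) and 528 (4.46%) were past that size in wild type cells and 355 (3%) and 323 (2.73%) in knockout cells. The wild type counts are of 1 library against 1, and the knockout counts of means over 2 libraries. Single pairs of knockout libraries gave 289 to 644 higher and 369 to 527 lower, so these counts do not compare the breadth of the responses. The median difference of the genes called higher was 1.18 in knockout and 1.04 in wild type cells, and that of the genes called lower -0.997 and -0.909. These genes were chosen by their knockout values, so the medians do not compare the sizes of the 2 responses. Across all genes tested the responses correlated with a Spearman rho of 0.694 (no libraries shared, genes not independent). Fgf5, for example, went from 1.64 to 52.7 FPKM in wild type cells (4.35), Tagln from 5.67 to 90.8 (3.78) and Esrrb from 193 to 40.5 (-2.23).

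No gene passed the test of the difference between responses (knockout minus wild type, limma over all 6 libraries in 4 groups, adjusted p of at least 0.9996), and 341 (2.88%) had an unadjusted p under 0.05. With 1 wild type library per medium the test has little precision: the standard error for Esrrb was 0.43 on the log2 scale. Among the 8 genes with the lowest p in each direction, none past the threshold, was Dnmt3b, which went from 117 to 379 FPKM in wild type cells (1.69) against 0.41 in knockout cells. Tfap2c went from 33.4 to 10.7 FPKM (-1.55) against -0.12, Mymx differed by -4.60 against -2.62, and Dynlt1f by -0.44 against 2.02. Klf4, with -1.96 against -0.70, was not among these. Id1 gave 0.85 in wild type and -0.14 in knockout cells, and Hopx 1.66 and -0.61. Pou5f1 went from 1145 to 960 FPKM in wild type cells (-0.25), against -0.70 in knockout cells. T reached 1.81 FPKM in wild type cells after removal and Wnt6 1.41, below both knockout libraries.

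**Figure D4:**
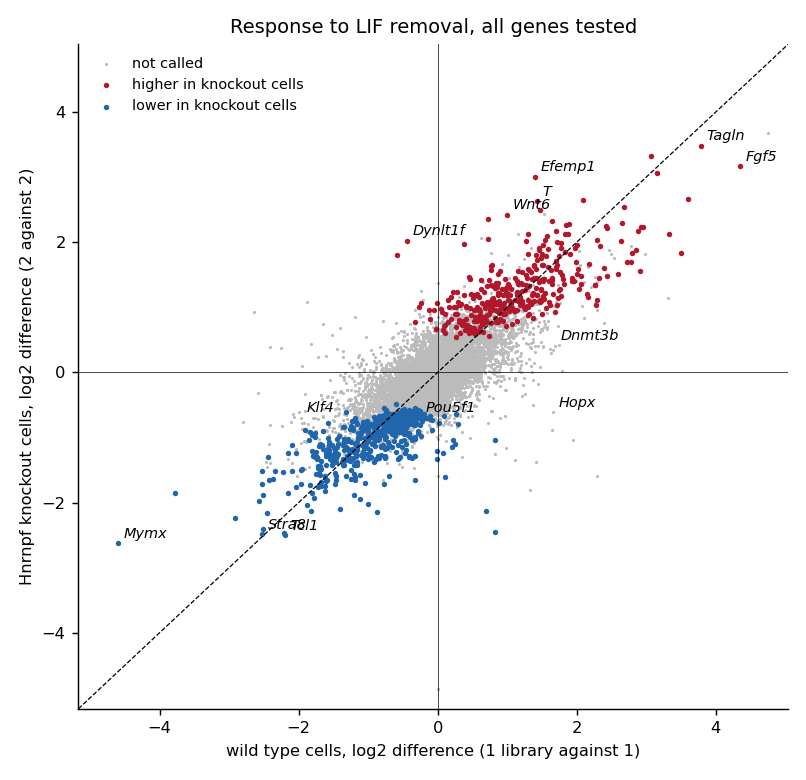
Log2 difference after LIF removal for each tested gene in wild type cells (horizontal, 1 library against 1) and in Hnrnpf knockout cells (vertical, 2 against 2), with genes called higher in knockout cells in red and lower in blue. Nearly all coloured points lie in the quadrants where both differences have the same sign (351 of 361 and 442 of 454), and the dashed line marks equal differences.

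The 2 knockout libraries after removal differed from each other. At a log2 of at least 1, 154 genes were higher and 57 lower in library 2 than in library 1, against 147 and 55 with LIF. Across media, between 289 and 644 genes were higher and between 369 and 527 lower at that size, depending on the pair. The naive factors were higher in library 2 after removal for 5 of 16 (median gap -0.41), although with LIF 11 of 16 were higher there (0.13). Streak genes were higher in library 2 for 8 of 10 (median gap 0.62), trophoblast genes for 10 of 11 (0.58) and p53 targets for 19 of 23 (0.23), with 51% and a median of 0.01 over all genes tested. For actin genes the gap was 0.52, as given above.

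The genes of at least 5 FPKM with the largest gap after removal were the smooth muscle and skeletal actins Acta2 (1.87 and 20.5 FPKM) and Acta1 (6.199 and 27.01), the homeobox gene Rhox5 (2.60 and 23.9), H19, Ankrd37, which responds to hypoxia (8.23 and 0.872), and Cox7a1 (13.5 and 2.41). Their gaps with LIF had the same sign in each case: Acta2 was at 0.122 and 2.16 FPKM, Acta1 at 0.352 and 4.08, Rhox5 at 9.91 and 60.02, Ankrd37 at 13.8 and 2.38 and Cox7a1 at 12.9 and 7.20. None of the 6 passed the limma test between media, which takes no account of the library number (adjusted p of 0.1014 or more).

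**Figure D5:**
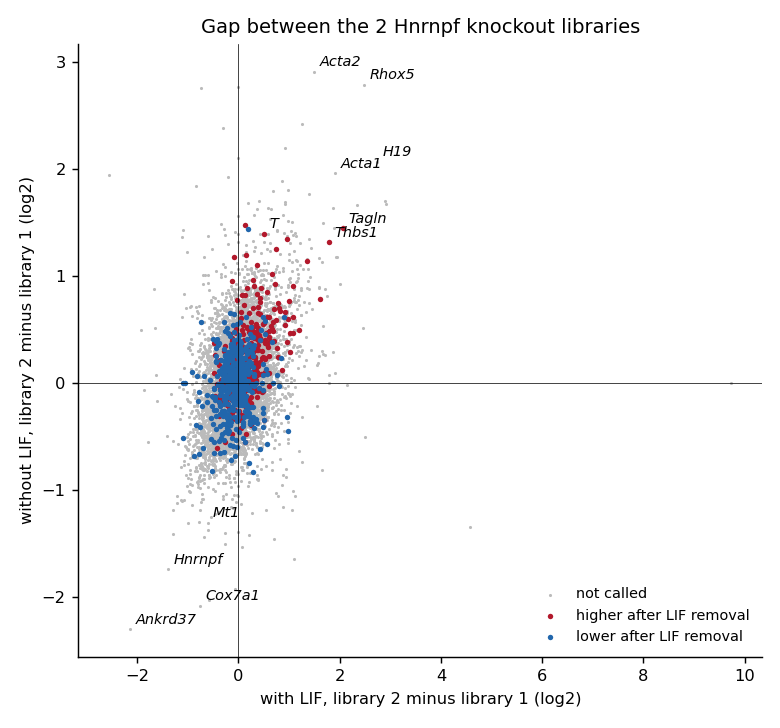
Log2 gap between knockout libraries 2 and 1 with LIF (horizontal) and after LIF removal (vertical) for each tested gene, coloured by the call after removal. Of the genes called higher (red), 71.5% lie right of 0 and 68.7% above 0, against 50.8% and 51% over all tested genes.

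Calls were uneven over chromosomes, with 3.05% higher and 3.83% lower over all genes tested. Chromosome 7 had 10 genes higher and 78 lower of 943 tested (median -0.16), chromosome 17 had 9 and 48 of 620 (-0.12), and chromosome X had 33 and 10 of 425 (0.14). Chromosomes were singled out after their values were seen, and transcript GC, which moves with the response, was not taken out of these counts.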

How the data were processed

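RNA-seq of 6 mouse ESC libraries was analysed from 1 deposited table of FPKM per gene symbol, made by the authors from 150 bp paired-end reads of total RNA. STAR, Cufflinks and the build mm10 are named per the submitters' processing notes. Their versions, the settings and the gene models used were not given in the sources used here. Each column was mapped to its sample by name. No read counts were used, so no counting error can be given.

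FPKM were analysed as log2(FPKM + 1) without rescaling, keeping genes whose mean over the 4 knockout libraries was 1 FPKM or more. limma 3.58.1 (R 4.3.3) was used for the tests (empirical Bayes with an intensity trend, two-sided, Benjamini-Hochberg adjusted p under 0.05). The knockout fit has 2 residual and 4.71 prior degrees of freedom. The difference of responses was fitted over all 6 libraries, the lone wild type libraries being assumed to vary like the knockout libraries. Wild type cells (1 library against 1) were compared without a test, at an absolute log2 difference of at least 1. The fits were tested on simulated data.

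The comparison and the 39 gene lists (791 entries, 789 found, 650 tested) were chosen with earlier results of these data known, so lists are described by counts and medians and not tested. The values of 1 list member are not reported here. Genes named are Hnrnpf, a panel of pluripotency and lineage genes, the 12 largest rises and falls with libraries that do not overlap (without unnamed models and ribosomal, mitochondrial, histone and small RNA genes), list members by p or role, the 8 genes with the lowest p in each direction for the difference of responses (some named), and the 6 genes with the largest gap between knockout libraries after removal. Positions and promoters are from RefSeq (GRCm38.p6), transcript GC from the longest GENCODE M21 transcript of a symbol. Alternatives were a pseudocount of 0.1, a minimum of 5 FPKM or none, quantile and median ratio scaling, no trend, each library left out, a 4-group fit, the replicate block and, chosen after seeing the data, GC correction.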

Additional observations from a re-analysis of the deposited data

How the results depend on the processing

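The 815 genes called (361 higher, 454 lower) kept their direction under all alternatives in which they were fitted. This is weak evidence of stability. Changing the filter or the trend, the 4-group fit and the block leave each difference as it was. Leaving out a library cannot turn the sign where libraries do not overlap between media. With no filter on low values 0 genes passed in either direction. A minimum of 5 FPKM gave 573 (227 higher, 346 lower), a model without trend 607 (309 and 298), a pseudocount of 0.1 gave 729 (321 and 408), quantile scaling 709 (358 and 351), median ratio scaling 785 (382 and 403) and the 4-group fit 816 (358 and 458). Leaving out 1 library gave 100 to 526 genes, 27 to 265 higher and 73 to 261 lower. GC correction, chosen after seeing the data, gave 344 (204 and 140). The replicate block gave 2631 (1139 and 1492), and with GC correction 2087 (1058 and 1029). What a number shared between media stands for is not stated. Libraries of a number deviated together (correlation 0.363), but with 2 numbers pairing was not assumed. Under the block 27 of the 46 named genes not called passed, among them Acta1, Acta2, Rhox5, H19 and Ankrd37. The difference of responses gave 0 genes in each alternative except without library 1 with LIF, where 1 passed (0 to 1 over the libraries left out). In wild type cells 446 genes were higher and 528 lower by at least 1, 779 higher with a pseudocount of 0.1, and 214 and 319 at a minimum of 5 FPKM.

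Of the 107 named genes called, all kept their direction under every alternative, which for many alternatives was fixed in advance as stated above. The call was kept for 63 after GC correction and for 0 without a filter. Among named genes not called, the sign turned without library 1 with LIF for Hnrnpf (0.467), Ankrd37 (0.299), Mt1 (0.003) and Hnrnph1 (-0.012), without library 2 with LIF for Tfap2c (0.032) and Gata4 (-0.192), without library 1 after removal for Gata4 (-0.019), and without library 2 after removal for Hnrnpf (0.643), Ankrd37 (0.383), Cox7a1 (0.436) and Mt1 (0.353). It turned after GC correction, with and without the block, for Hnrnph1 (-0.219), Id1 (0.056) and Tfap2c (0.008), and under quantile scaling for Mt1 (0.156). The cause was not tested. Over the libraries left out, Hnrnpf ranged from -1.099 to 0.643, Ankrd37 from -1.918 to 0.383, Cox7a1 from -1.648 to 0.436, Mt1 from -0.954 to 0.353, Hnrnph1 from -0.012 to 0.155 Tfap2c from -0.266 to 0.032 and Gata4 from -0.192 to 0.344. No read counts were used, so depth limits cannot be set.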

Other observations

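Outside the groups above, the largest rises included Ppp4r4, a phosphatase subunit (log2 difference 2.64), and the scavenger receptor Colec12 (2.55). Twist1 (1.002), Mtf2 (-0.70) and Cox5a (-0.63) passed the limma threshold after GC correction (adjusted p = 0.0455, 0.0435 and 0.0435) and not before it.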
